A study of Drosophila melanogaster with 30 samples.

Results

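The Toll pathway components described here were 8 genes, SPE, spz, Tl, Myd88, pll, cact, dl and Dif, chosen by name as members of the pathway. All 8 had values among the 16322 genes listed over all files, and 7 of them among the 14999 genes listed in the files of infested lymph glands, where spz was not listed and is therefore not measured. The data were 30 Drop-seq libraries of Drosophila melanogaster hemocytes, a droplet method that tags each mRNA with a cell barcode and with a unique molecular identifier (UMI), so that copies made by PCR are counted once. All larvae were Oregon-R, a wild-type strain, and no group carried a transgene or mutation. The lymph gland, the larval blood-forming organ, of normal larvae gave 5 libraries at 72 h after egg laying (AEL), 5 at 96 h and 4 at 120 h. Lymph glands of larvae infested at 72 h AEL by the parasitoid wasp Leptopilina boulardi gave 4 libraries of 96 h AEL. Hemocytes of the circulation gave 3 libraries each for normal larvae of 96 and 120 h AEL and for infested larvae of 96 and 120 h AEL. Each lymph gland library pooled the primary lobes of many larvae, so that larvae within a library cannot be told apart. How the circulating hemocytes were collected for sequencing is not given in the sources used here.

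In the Toll pathway, a cascade of serine proteases that is set off by recognition of microbes or wounds ends with SPE, the Spätzle-processing enzyme, which cleaves the ligand precursor encoded by spz. Cleaved Spätzle binds the receptor encoded by Tl, which signals through the adaptor Myd88 and the kinase encoded by pll (pelle). Cactus, the IκB protein encoded by cact, is then degraded and releases the NF-κB factors encoded by dl (dorsal) and Dif. The pathway is known for the induction of antimicrobial peptides in the fat body, and in larval blood for its effect on hemocyte number and lamellocyte formation when it is overactive.

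The annotation of the BDGP6 assembly places SPE on chromosome arm 3R from 23686255 to 23688147, spz on 3R from 27064990 to 27070070, Tl on 3R from 26799041 to 26842403 and pll on 3R from 27251131 to 27253182. Myd88 lies on 2R from 9302823 to 9308722 and cact on 2L from 16313036 to 16326207. The NF-κB genes lie beside each other on 2L, with Dif from 17413248 to 17433161 and dl from 17436830 to 17450364. SPE and Tl are on the plus strand and the other 6 genes on the minus strand. Exons of SPE share 107 bases (8.45% of its exonic bases) with CG18754 on the same strand, and the exons of spz, pll, cact and Dif share 5 to 252 bases with genes on the opposite strand.

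After filtering, 48275 cells remained, with 1125944 to 33310323 UMIs per library. Values are given as CPM, counts of UMIs scaled to the same total UMIs of kept cells in every library. Because the UMIs of a library were summed, fewer cells of a type and less RNA per cell cannot be told apart. The totals of the infested lymph glands lack 541 genes that held 2.08% to 3.33% of the UMIs of the other libraries. Libraries were labelled as biological replicates, but nothing stated which larvae or days they shared.

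Some circulating libraries stood apart from their labels. The 3 libraries labelled as circulation of infested larvae at 96 h AEL resembled lymph glands more than circulation: their log levels correlated best with a lymph gland group (mean r of 0.95 to 0.97, against 0.93 to 0.95 with each other). Tep4, a lymph gland progenitor gene, was at 674 to 957 CPM in them and at 109 to 190 CPM in normal circulation. The summed plasmatocyte markers Hml, Pxn, NimC1 and eater were at 855 to 1706 CPM in them and at 6304 to 11021 CPM in normal circulation. In circulation of infested larvae at 120 h AEL this sum was also low, at 576 to 1108 CPM, whereas Tep4 was at 69.7 to 104 CPM. The plasmatocyte sum therefore sets these libraries apart from normal circulation only. Libraries 2 and 3 of normal circulation at 96 h AEL correlated best with the group of 120 h AEL, and library 3 of 120 h AEL with the group of 96 h AEL. Library 3 of 96 h AEL and library 1 of 120 h AEL shared 41 cell barcodes (9.03% of the smaller set), whereas no other pair of libraries shared more than 2.04%. Leaving these shared barcodes out changed no call of a Toll component. Heat shock and chaperone transcripts summed to 1525 to 19882 CPM (median 3935 CPM) in normal lymph glands of 120 h AEL, with the highest value in library 2, and to 814 to 1823 CPM (median 840 CPM) in those of 96 h AEL.

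**Figure D1:**
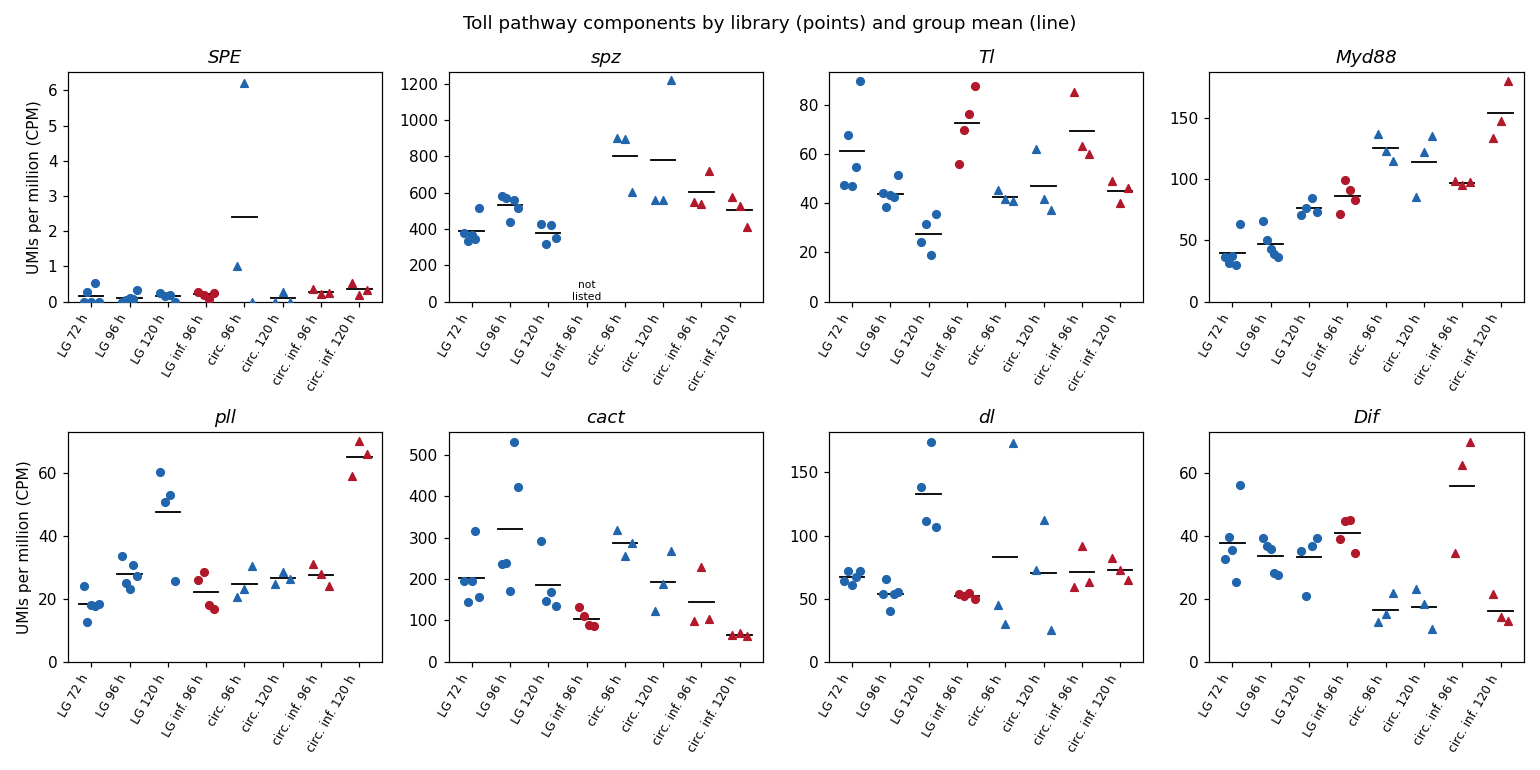
Scaled UMI counts (CPM, vertical axes) of the 8 Toll components in each library, in 8 groups along the horizontal axis (LG, lymph gland; circ., circulation; inf., infested). Points are libraries, blue for normal and red for infested larvae, circles for lymph gland and triangles for circulation, and black lines are group means. SPE stays at 6.22 CPM or less, spz is not listed for infested lymph glands, and pll is highest in circulation of infested larvae at 120 h AEL (58.7 to 69.9 CPM).

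SPE, the protease that activates the ligand, was almost undetected in hemocytes. It had 74 UMIs in all 30 libraries together and none in 8 of them, where a count of 0 allows up to 0.249 to 1.35 CPM per library (3 counts, counting error only). The group with the highest mean was normal circulation at 96 h AEL, at 1.01, 6.22 and 0 CPM. The library at 6.22 CPM held 7 SPE UMIs and had the highest sum of fat body transcripts, 963 CPM, against 0 to 1.62 CPM in all lymph gland libraries. The part of fat body RNA in this value was not tested. SPE passed the filter on low counts in no comparison, so the other 7 components carry the tests below, or 6 where infested lymph glands enter.

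The ligand gene spz was detected in all 26 libraries that list it, from 314 CPM in a lymph gland library of 120 h AEL to 1219 CPM in a normal circulation library of 120 h AEL. By group mean its order ran from normal circulation at 96 h AEL (800 ± 170 CPM, SD, n = 3) and 120 h AEL (778 ± 382 CPM, n = 3) to the lymph gland at 72 h AEL (387 ± 72.6 CPM, n = 5) and 120 h AEL (379 ± 56.3 CPM, n = 4). Each group overlapped its neighbour in this order. Tl spanned 18.9 to 89.8 CPM, cact 61.5 to 531 CPM and dl 25.4 to 174 CPM over the 30 libraries. Myd88 spanned 29.6 to 180 CPM, pll 12.7 to 69.9 CPM and Dif 10.3 to 69.9 CPM. Among neighbours in the order of group means, only 3 pairs did not overlap: Tl in normal circulation at 96 h AEL above lymph glands of 120 h AEL, Myd88 in lymph glands of 120 h AEL above those of 96 h AEL, and cact in infested lymph glands above circulation of infested larvae at 120 h AEL.

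Over up to 30 libraries, which share depth and cell makeup with their group, Pearson's r between log2(CPM + 1) values of 2 components lay between -0.58 (Tl and pll) and 0.55 (spz and Myd88). Among 3918 genes with a mean of at least 20 CPM, the gene most like pll was Gie, a small GTPase gene (r = 0.95 over 30 libraries), followed by Arpc5 (0.94), a subunit of the actin-nucleating Arp2/3 complex, and Cdk5 (0.94). Tl was most like mod (modulo, 0.89), CG1234 (0.86) and CG5033 (0.86), and Dif was most like RpS2 (0.86), mthl6 (0.84) and RpS20 (0.84), of which RpS2 and RpS20 encode ribosomal proteins. Myd88 was most like CG8176 (0.91), CG12121 (0.91) and Vha26 (0.91), a subunit of the vacuolar proton pump. spz was most like bbc (0.85 over 26 libraries), Jafrac2 (0.83) and CG9331 (0.82), dl like CG31523 (0.84), CG18769 (0.83) and pdgy (0.82), and cact like Ih (0.78), CG5118 (0.77) and CG11141 (0.76).

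Development of the normal lymph gland was compared first. From 72 to 96 h AEL, 1 of the 7 tested components passed the test, against 20.0% of all 7741 genes (9.82% higher and 10.2% lower). This was the receptor gene Tl, at 47.5, 67.7, 46.8, 54.5 and 89.8 CPM in the libraries of 72 h AEL and at 44.3, 38.3, 43.1, 42.3 and 51.2 CPM in those of 96 h AEL. The groups overlapped, and Tl fell by 0.60 ± 0.16 (SE) on the log2 scale (adjusted p = 0.016, edgeR's quasi-likelihood test). With scaling by library totals alone, the value was -0.47 and its adjusted p was 0.079. The inhibitor gene cact was at 196, 145, 196, 316 and 156 CPM at 72 h AEL and at 235, 239, 171, 531 and 423 CPM at 96 h AEL (0.47 ± 0.35, adjusted p = 0.38), with the widest spread among the libraries of 96 h AEL. spz had a log2 fold change of 0.33 ± 0.13 (adjusted p = 0.076) and dl of -0.46 ± 0.16 (adjusted p = 0.059), both near the threshold. Myd88, pll and Dif were at 0.14 ± 0.17, 0.43 ± 0.22 and -0.28 ± 0.17 (adjusted p of 0.62, 0.19 and 0.29).

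From 96 to 120 h AEL, Myd88, pll and dl rose and Tl and spz fell, so that 5 of 7 passed the test, against 42.2% of all genes (21.9% higher and 20.3% lower). Markers moved over the same interval. The prohemocyte genes Tep4 and Ance summed to 2844 to 3336 CPM at 96 h AEL and to 4475 to 7193 CPM at 120 h AEL, without overlap. Only Ance rose, from 1929 to 2343 CPM to 3348 to 6252 CPM, whereas Tep4 overlapped at 750 to 1369 CPM and 804 to 1127 CPM. The heat shock sums had a higher median at 120 h AEL, as given above. The part of these markers in the changes was not tested. The NF-κB gene dl was at 53.6, 65.3, 40.3, 53.5 and 55.4 CPM at 96 h AEL and at 139, 112, 174 and 107 CPM at 120 h AEL. The groups did not overlap, as for 35.8% of all genes tested, and the log2 fold change was 1.45 ± 0.17 (adjusted p = 8.7e-06), a 2.74-fold rise. The kinase gene pll was at 33.6, 24.9, 23.2, 30.8 and 27.4 CPM at 96 h AEL and at 60.3, 50.8, 52.8 and 25.5 CPM at 120 h AEL. Library 4 of 120 h AEL lay within the range of 96 h AEL, and pll rose 1.88-fold (log2 fold change 0.91 ± 0.21, adjusted p = 0.0029). The adaptor gene Myd88 was at 66.2, 50.4, 43.2, 38.6 and 36.8 CPM at 96 h AEL and at 70.4, 76.4, 84.9 and 73.6 CPM at 120 h AEL. Its groups did not overlap, and it rose 1.81-fold (0.86 ± 0.17, adjusted p = 0.00087).

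The receptor and its ligand went down over the same interval. Tl was at 24.2, 31.4, 18.9 and 35.6 CPM at 120 h AEL, below all libraries of 96 h AEL, and fell by 0.53 ± 0.17 on the log2 scale (adjusted p = 0.019). Without library 3 of 120 h AEL, the Tl value was -0.40 and its adjusted p was 0.067. For spz, the values were 579, 571, 438, 560 and 513 CPM at 96 h AEL and 429, 314, 423 and 350 CPM at 120 h AEL, with all libraries of 120 h AEL below the lowest of 96 h AEL. It fell by 0.35 ± 0.13 on the log2 scale (adjusted p = 0.046), at the edge of the threshold: the call was lost without any 1 of 7 libraries (libraries 1 and 3 of 72 h AEL, 1, 2 and 4 of 96 h AEL, and 2 and 4 of 120 h AEL), and the adjusted p then reached 0.12. It was also lost with RLE factors (-0.33, adjusted p = 0.056) and with no filter on low counts (-0.24, adjusted p = 0.26). cact was at 292, 148, 169 and 136 CPM at 120 h AEL and overlapped with 96 h AEL (-0.65 ± 0.38, adjusted p = 0.18). Dif was at 21.0 to 39.4 CPM, against 27.6 to 39.2 CPM at 96 h AEL (0.13 ± 0.18, adjusted p = 0.57).

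Between the ends of the series, 72 and 120 h AEL, 4 of 7 components passed, against 50.5% of all genes (26.0% higher and 24.5% lower). The groups of all 4 did not overlap, as for 32.1% of genes. Tl fell by 1.131 ± 0.17 on the log2 scale (adjusted p = 6.0e-05), and pll rose by 1.34 ± 0.23 (adjusted p = 0.00016), Myd88 by 0.99 ± 0.18 (adjusted p = 0.00024) and dl by 0.99 ± 0.17 (adjusted p = 0.00018). Each of these calls was kept in every leave-one-out fit. spz, cact and Dif were at -0.02 ± 0.13, -0.18 ± 0.37 and -0.14 ± 0.18 (adjusted p of 0.93, 0.71 and 0.54). The mean of dl was 67.1 CPM at 72 h AEL, 53.6 CPM at 96 h AEL and 133 CPM at 120 h AEL.

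**Figure D2:**
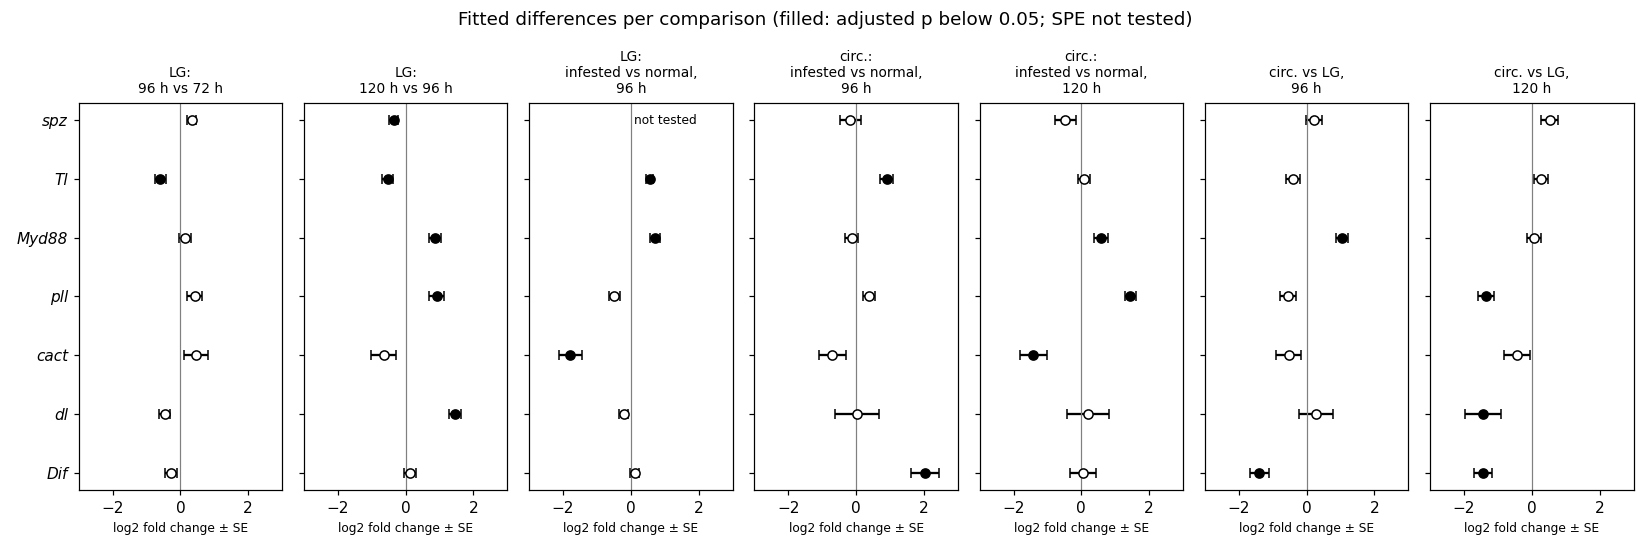
Fitted log2 fold changes with standard errors (horizontal axes) of 7 Toll components (vertical axis) in 7 comparisons, from edgeR fits on summed UMIs. Filled points have an adjusted p under 0.05. In infested lymph glands cact lies at -1.78, Tl at 0.55 and Myd88 at 0.71, whereas in circulation of infested larvae at 120 h AEL pll lies at 1.44.

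Other genes of the pathway, from lists, were counted in the same fits. Of 17 upstream recognition, protease and inhibitor genes with values, 7 were tested in the normal lymph gland, and 3 rose and 2 fell from 72 to 96 h AEL, against 9.82% and 10.2% of all genes, and 5 rose and 1 fell from 96 to 120 h AEL, against 21.9% and 20.3%. With so few genes tested these shares are a description only. The recognition protein gene PGRP-SA rose from 24.4 to 128 CPM from 72 to 96 h AEL (log2 fold change 2.17 ± 0.30, adjusted p = 0.00017). The serpin gene Spn27A fell from 262 to 154 CPM (-0.88 ± 0.17, adjusted p = 0.0022) and then rose to 338 CPM at 120 h AEL (1.27 ± 0.18, adjusted p = 4.7e-05). Of 13 cytoplasmic and nuclear genes, 12 were tested and 6 rose from 96 to 120 h AEL, against 21.9% of all genes, with a median log2 fold change of 0.58 against 0.000201 over all genes. They included aPKC (0.93 ± 0.17, adjusted p = 0.00034) and tub (0.67 ± 0.16, adjusted p = 0.0038), the adaptor that binds pelle. The receptor gene Tollo rose from 11.1 to 57.0 CPM (2.51 ± 0.22, adjusted p = 8.1e-07). Of the targets, only the antimicrobial peptide genes Drs and Mtk were abundant enough to be tested. Drs rose from a mean of 18.8 CPM at 72 h AEL to 388 CPM at 96 h AEL (4.09 ± 0.71, adjusted p = 0.0017) and to 1527 CPM at 120 h AEL (2.12 ± 0.65, adjusted p = 0.019), and Mtk from 1.10 to 13.5 CPM (2.93 ± 0.55, adjusted p = 0.0023) and 30.1 CPM (1.30 ± 0.39, adjusted p = 0.016).

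Cells of the normal lymph gland were then split by Tep4, a gene of progenitors (prohemocytes), and Hml, a gene of maturing hemocytes. A cell counted as positive from 1 UMI, so both the depth of a cell and free RNA enter the classes. Tep4+ Hml- cells numbered 547, 1264 and 2443 at 72, 96 and 120 h AEL, and Tep4- Hml+ cells 107, 1574 and 1395. Most cells, 1627, 6406 and 6742, had both transcripts and did not enter the comparison. They were also deeper: at 96 h AEL their median UMIs per library were 5776 to 9850, against 3049 to 4519 in Tep4- Hml+ cells. The Tep4+ Hml- and Tep4- Hml+ classes were compared within the 13 libraries that had at least 10 cells of each. Here 5 of 7 components differed, against 25.5% of 4819 genes (14.4% higher and 11.1% lower), with spz, Tl and cact lower and Dif and dl higher in the Tep4+ Hml- cells.

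The ligand gene spz differed most. It was at 72.2 to 332 CPM (median 143 CPM) in Tep4+ Hml- cells and at 438 to 855 CPM (median 612 CPM) in Tep4- Hml+ cells, with no overlap of the classes and lower values in the Tep4+ Hml- cells of 13 of 13 libraries. The log2 difference was -1.86 ± 0.19 (adjusted p = 2.9e-06), a 3.64-fold lower level. cact, the inhibitor gene, was at 54.9 to 251 CPM (median 108 CPM) and at 160 to 604 CPM (median 338 CPM) in these classes, and was lower in 13 of 13 libraries by 1.22 ± 0.16 (adjusted p = 1.3e-05). Tl was at 11.5 to 62.2 CPM (median 27.1 CPM) and at 20.0 to 83.8 CPM (median 43.1 CPM), and was likewise lower in 13 of 13 libraries (-0.77 ± 0.12, adjusted p = 2.9e-05).

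Dif went the other way, at 22.8 to 99.6 CPM (median 40.6 CPM) in Tep4+ Hml- cells and at 14.4 to 36.1 CPM (median 27.6 CPM) in Tep4- Hml+ cells. It was higher in 13 of 13 libraries, by 0.84 ± 0.12 on the log2 scale (adjusted p = 1.4e-05). For dl the difference was smaller, 0.43 ± 0.14 (adjusted p = 0.026), with higher values in 10 of 13 libraries. The median of dl was higher in Tep4+ Hml- than in Tep4- Hml+ cells at 72 h AEL (69.9 and 46.8 CPM) and 120 h AEL (158 and 115 CPM). At 96 h AEL it was not (49.3 and 54.0 CPM). The dl call was lost without library 4 of 96 h AEL (adjusted p = 0.055) or library 2 of 120 h AEL, the one with the highest heat shock transcripts (adjusted p = 0.064), and with totals alone (0.31, adjusted p = 0.11). Over all ages, Myd88 and pll had differences of -0.01 ± 0.19 and -0.03 ± 0.19, with adjusted p of 0.99 and 0.93. Each was higher in 6 and lower in 7 of the 13 libraries. Their medians differed in direction between ages. At 96 h AEL both were lower in Tep4+ Hml- than in Tep4- Hml+ cells (Myd88 27.8 and 48.5 CPM, pll 18.1 and 31.99 CPM). At 120 h AEL both were higher (Myd88 96.3 and 69.6 CPM, pll 60.7 and 43.2 CPM). At 72 h AEL Myd88 was higher and pll lower, from 18 and 17 UMIs in Tep4- Hml+ cells. The ranges of the classes overlapped at each age. Whether the class difference changed with age was not tested.

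Cells with both transcripts lay between the classes for the median of spz (462 CPM), cact (223 CPM) and Dif (35.6 CPM), but above both for Tl (46.2 CPM). When every cell was thinned to 1000 UMIs before its status was set, the same 5 components were called, and the Tl difference was smaller (-0.34, adjusted p = 0.00075). Of other pathway genes, PGRP-SA (-1.81 ± 0.31, adjusted p = 0.00052), Pli (-1.16 ± 0.21, adjusted p = 0.00033), which encodes the pelle-binding protein Pellino, and Drs (-2.68 ± 0.78, adjusted p = 0.025) were lower in Tep4+ Hml- cells. The protease gene grass (1.18 ± 0.20, adjusted p = 0.00014) and aPKC (0.63 ± 0.11, adjusted p = 0.00011) were higher.

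**Figure D3:**
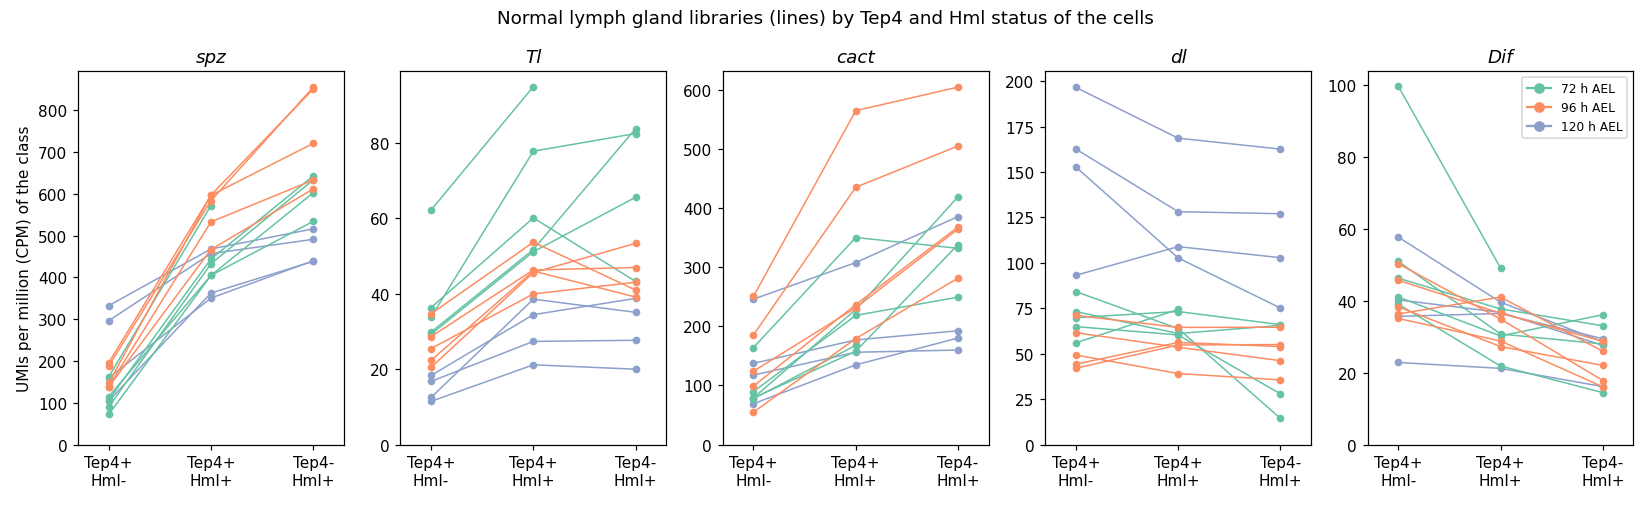
Scaled UMI counts (CPM, vertical axes) of 5 Toll components in Tep4+ Hml-, Tep4+ Hml+ and Tep4- Hml+ cells of normal lymph glands. Each line is 1 library, coloured by time, and 1 library of 72 h AEL had too few Tep4- Hml+ cells for a value. Lines for spz, Tl and cact end higher than they start in 13 of 13 libraries, and those for Dif end lower in 13 of 13.

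Small groups of cells marked by other genes were described without a test. Cells with UMIs of both lz and PPO2, genes of crystal cells, numbered 86 in 4 normal lymph gland libraries of 96 h AEL, and had cact at 523 to 647 CPM but Dif at 0 to 14.5 CPM and dl at 5.41 to 32.7 CPM. In 44 such cells of 3 normal lymph gland libraries of 120 h AEL, cact was at 405 to 584 CPM, Dif at 0 to 32.4 CPM and dl at 12.5 to 64.8 CPM. In 51 such cells of 2 normal circulation libraries of 96 h AEL, cact was at 524 and 586 CPM. Cells with UMIs of both Antp and kn, genes of the posterior signaling centre, had Dif at 54.3, 176 and 178 CPM in 3 normal libraries of 96 h AEL (39 cells) and at 138 to 208 CPM in the 4 infested ones (85 cells). Their Tl was at 0 to 27.1 CPM and 0 to 10.9 CPM. In the Antp and kn cells cact was at 0 to 1493 CPM in normal and at 37.8 to 76.6 CPM in infested glands, from 65 and 18 UMIs in all.

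Infestation of the lymph gland was compared at 96 h AEL, with 5 normal and 4 infested libraries. The inhibitor gene cact fell and Tl and Myd88 rose, so that 3 of 6 components passed, against 17.4% of 7315 genes (7.87% higher and 9.50% lower). cact was at 235, 239, 171, 531 and 423 CPM in normal and at 132, 111, 89.4 and 85.4 CPM in infested glands. All infested libraries lay below all normal ones, as for either direction of 22.4% of genes, and cact fell 3.45-fold (log2 fold change -1.78 ± 0.34, adjusted p = 0.0076). Without 1 library at a time the fall was between 1.52 and 1.95 on the log2 scale and kept its call in all 9 fits.

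The receptor gene Tl was at 55.8, 69.8, 76.3 and 87.6 CPM in infested glands, above all 5 normal libraries (38.3 to 51.2 CPM), and rose 1.46-fold (0.55 ± 0.12, adjusted p = 0.0085). Myd88 was at 71.7, 99.3, 90.9 and 82.9 CPM, above the normal range of 36.8 to 66.2 CPM, and rose 1.64-fold (0.71 ± 0.16, adjusted p = 0.011). The remaining downstream genes did not pass. pll was at 25.9, 28.6, 18.02 and 16.6 CPM against 23.2 to 33.6 CPM (-0.48 ± 0.17, adjusted p = 0.070). dl was at 53.4, 52.3, 54.4 and 49.9 CPM against 40.3 to 65.3 CPM (-0.21 ± 0.13, adjusted p = 0.30), and Dif at 38.9, 44.6, 45.0 and 34.4 CPM against 27.6 to 39.2 CPM (0.12 ± 0.13, adjusted p = 0.57).

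Markers of other cells moved with infestation. The prohemocyte genes Tep4 and Ance summed to 2844 to 3336 CPM in normal and to 1905 to 2631 CPM in infested glands, without overlap. Ance alone was at 1929 to 2343 CPM and 1178 to 1603 CPM, without overlap, whereas Tep4 overlapped at 750 to 1369 CPM and 716 to 1033 CPM. The median share of Tep4+ Hml- cells was 13.8% in normal and 17.4% in infested glands. The part of these differences in the changes above was not tested. The summed crystal cell genes lz, PPO1, PPO2 and peb were at 969 to 2086 CPM in normal and at 9.93 to 83.4 CPM in infested glands, with none of the 4 at 0 in either group. With cells of at least 3 PPO1 and PPO2 UMIs left out, cact was at -1.77 (adjusted p = 0.012), Tl at 0.52 (adjusted p = 0.012) and Myd88 at 0.70 (adjusted p = 0.014). The 5 lamellocyte genes, atilla among them, summed to 280 to 570 CPM in normal and 738 to 1165 CPM in infested glands. Of this, atilla itself was at 0.938 to 43.3 CPM in normal and at 226 to 472 CPM in infested glands. In cells without an atilla UMI, cact was at -1.82 (adjusted p = 0.0057), Tl at 0.56 (adjusted p = 0.0067) and Myd88 at 0.56 (adjusted p = 0.028), and pll passed the threshold (-0.55, adjusted p = 0.045).

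The fall of cact was also measured within the status classes. In Tep4- Hml+ cells cact was at 364, 368, 282, 604 and 505 CPM in normal and at 143, 141, 92.7 and 95.1 CPM in infested glands, and it fell 4.18-fold (-2.07 ± 0.23, adjusted p = 7.1e-05). In Tep4+ Hml- cells it was at 124, 98.8, 54.9, 251 and 185 CPM against 74.6, 58.1, 64.4 and 60.5 CPM. These groups overlapped through normal library 3, and the difference did not pass (-1.37 ± 0.41, adjusted p = 0.077), although it did without that library (-1.59, adjusted p = 0.0038) and in a joint fit of both classes (adjusted p = 0.018). Whether the classes differ in the fall of cact was not tested.

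Myd88 rose in both classes, by 0.84 ± 0.17 in Tep4+ Hml- cells (adjusted p = 0.0042) and by 0.69 ± 0.17 in Tep4- Hml+ cells (adjusted p = 0.0076), though in the latter the adjusted p was 0.058 over cells without an atilla UMI. Tl rose in Tep4+ Hml- cells, from 20.5 to 34.7 CPM in the normal libraries to 40.0, 39.7, 69.9 and 58.9 CPM in the infested ones, with no overlap (0.79 ± 0.21, adjusted p = 0.023). That call was lost without normal library 3 (adjusted p = 0.061) or 4 (0.082) or infested library 3 (0.12). In Tep4- Hml+ cells the Tl value was 0.49 ± 0.18 (adjusted p = 0.062). In all, 2 of 6 components passed in Tep4+ Hml- cells, against 9.87% of 5560 genes (4.28% higher and 5.59% lower), and 2 of 6 in Tep4- Hml+ cells, against 17.5% of 4951 genes (7.07% higher and 10.4% lower). pll was at -0.03 ± 0.26 and -0.65 ± 0.26 in these classes (adjusted p of 0.96 and 0.086), dl at -0.33 ± 0.18 and -0.22 ± 0.17 (0.26 and 0.42) and Dif at 0.14 ± 0.17 and 0.35 ± 0.23 (0.67 and 0.32).

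**Figure D4:**
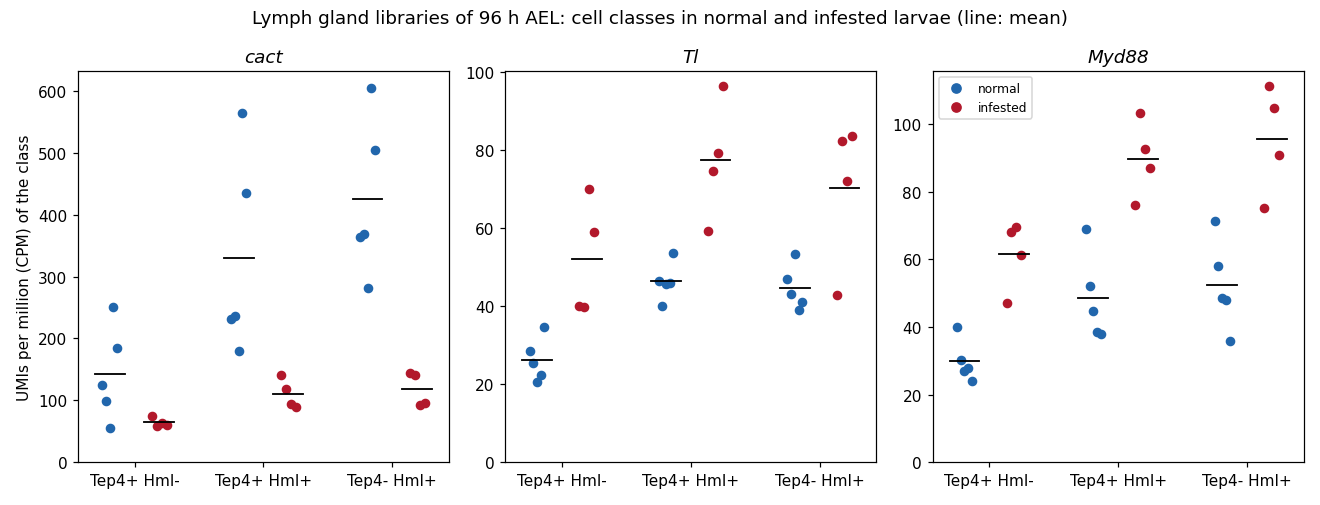
Scaled UMI counts (CPM, vertical axes) of cact, Tl and Myd88 in 3 classes of lymph gland cells at 96 h AEL (horizontal axis). Points are libraries, blue for 5 normal and red for 4 infested glands, and black lines are means. In Tep4- Hml+ cells the infested libraries lie at 92.7 to 143 CPM for cact and the normal ones at 282 to 604 CPM.

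In the same comparison, 3 of 7 tested upstream genes fell and none rose, against 9.50% of all genes lower and 7.87% higher. They were PGRP-SA (128 to 42.4 CPM, -1.76 ± 0.40, adjusted p = 0.019), grass (25.5 to 9.97 CPM, -1.51 ± 0.19, adjusted p = 0.00035) and GNBP1 (-0.48 ± 0.12, adjusted p = 0.020), which acts with PGRP-SA in recognition of bacteria. Of 11 cytoplasmic and nuclear genes, 1 rose and 3 fell, against the same shares, among the latter Rel, the NF-κB gene of the Imd pathway (776 to 490 CPM, -0.83 ± 0.22, adjusted p = 0.027), aPKC (-0.78 ± 0.17, adjusted p = 0.011) and Pli (-0.71 ± 0.18, adjusted p = 0.019). The target Drs fell from 388 to 29.1 CPM (-3.88 ± 0.88, adjusted p = 0.022), with no overlap of the groups, and 2 of 3 tested targets fell in all.

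In circulation at 96 h AEL, the libraries labelled infested differed from normal ones in Tl and Dif, 2 of 7 components, against 36.1% of 7607 genes (18.8% higher and 17.3% lower). Dif was at 12.8, 15.1 and 21.7 CPM in normal and at 34.6, 62.5 and 69.9 CPM in the libraries labelled infested. The groups did not overlap, as for 36.4% of genes, and the log2 fold change was 2.04 ± 0.41 (adjusted p = 0.0043), a 4.12-fold difference. Tl was at 45.3, 41.7 and 40.8 CPM against 85.0, 63.2 and 59.9 CPM, also without overlap (0.90 ± 0.19, adjusted p = 0.0053). Markers of the lymph gland moved with both: Tep4 and Ance together were at 396 to 568 CPM in normal and at 2041 to 2791 CPM in the libraries labelled infested, and Antp and kn at 0.672 to 7.11 CPM and at 15.2 to 43.2 CPM. Dif was at 57.7 to 83.5 CPM in the Tep4+ Hml- cells of the latter, and normal circulation held 3 such cells in all. The part of these cells in the Dif and Tl differences was not tested.

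The other 5 components did not pass at 96 h AEL. spz was at -0.17 ± 0.32 (adjusted p = 0.70), Myd88 at -0.13 ± 0.20 (adjusted p = 0.63) and pll at 0.38 ± 0.18 (adjusted p = 0.12). cact was at 317, 256 and 287 CPM against 97.5, 229 and 103 CPM, without overlap, at -0.70 ± 0.40 (adjusted p = 0.19), and it passed without the second library labelled infested (-1.38, adjusted p = 0.011). dl was at 45.0, 30.2 and 173 CPM in normal circulation, a spread set by library 3, and at 59.3, 91.8 and 63.1 CPM in the libraries labelled infested (0.03 ± 0.64, adjusted p = 0.98). The normal libraries 3 of both times resembled the other time, as did normal library 2 of 96 h AEL. Only the libraries 3 were left out in an alternative chosen after seeing the data. There dl was at 1.21 (adjusted p = 0.032) and pll at 0.64 (adjusted p = 0.036). Dif (2.38, adjusted p = 0.0069) and Tl (0.92, adjusted p = 0.014) kept their calls. Without normal library 3 of 96 h AEL alone, pll was at 0.57 (adjusted p = 0.047).

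At 120 h AEL in circulation, pll and Myd88 rose and cact fell, 3 of 7, against 46.2% of 7607 genes (23.5% higher and 22.7% lower). pll was at 24.6, 28.6 and 26.3 CPM in normal and at 58.7, 69.9 and 66.01 CPM in infested larvae. The ranges were far apart, in a comparison where 61.9% of genes did not overlap, and pll rose 2.72-fold (1.44 ± 0.17, adjusted p = 8.4e-05). Myd88 was at 85.3, 122 and 135 CPM against 133, 148 and 180 CPM, with a slight overlap (0.58 ± 0.20, adjusted p = 0.030). cact was at 123, 189 and 269 CPM against 65.9, 68.4 and 61.5 CPM, without overlap, and fell 2.66-fold (-1.41 ± 0.40, adjusted p = 0.015).

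Markers of other cells moved with these differences. The summed plasmatocyte genes were at 6304 to 9143 CPM in normal and at 576 to 1108 CPM in infested larvae, and their part in the differences was not tested. Lamellocytes are large cells that encapsulate wasp eggs. The 5 lamellocyte genes summed to 614 to 1058 CPM in normal and to 8512 to 11187 CPM in infested larvae, and 4759 of the 6705 infested cells had at least 3 atilla UMIs. In those cells pll was at 65.5 to 77.3 CPM, Myd88 at 155 to 193 CPM, cact at 59.5 to 62.9 CPM and Dif at 9.49 to 12.01 CPM. In cells without an atilla UMI, the difference in pll was 0.36 (adjusted p = 0.20) and that in Myd88 changed sign (-0.45, adjusted p = 0.22), whereas cact was at -1.48 (adjusted p = 0.036). With crystal-type cells left out as above, pll was at 1.39 (adjusted p = 0.00011), cact at -1.30 (adjusted p = 0.024) and Myd88 at 0.54 (adjusted p = 0.063).

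The calls of cact and Myd88 at 120 h AEL were lost when single libraries were left out. Without normal library 3 cact was at -1.09 (adjusted p = 0.065), without both normal libraries 3 at -1.0003 (adjusted p = 0.096), and without infested library 1, 2 or 3 at -1.38, -1.40 or -1.33 (adjusted p of 0.052 to 0.055). With no filter on low counts cact was at -1.20 (adjusted p = 0.081). The Myd88 call was lost without normal library 1 (0.45, adjusted p = 0.10) or 2 (0.65, adjusted p = 0.060) or infested library 2 (0.67, adjusted p = 0.064) or 3 (0.50, adjusted p = 0.096), and with scaling by totals alone (0.43, adjusted p = 0.078). Dif was at 23.1, 18.3 and 10.3 CPM against 21.5, 14.3 and 13.1 CPM (0.05 ± 0.39, adjusted p = 0.93), dl at 73.1, 113 and 25.4 CPM against 82.0, 72.7 and 64.4 CPM (0.20 ± 0.63, adjusted p = 0.82), and Tl and spz had log2 fold changes of 0.08 ± 0.19 and -0.47 ± 0.32 (adjusted p of 0.74 and 0.24).

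Whether the difference between infested and normal larvae was itself different between times and between tissues was tested directly. Between 120 and 96 h AEL in circulation, the effect differed for 2 of 7 components, against 12.6% of genes (7.20% higher and 5.39% lower): it was higher at 120 h AEL for pll (1.06 ± 0.25, adjusted p = 0.020) and lower for Dif (-1.995 ± 0.57, adjusted p = 0.044). The Dif call was lost without any 1 of 9 of the 12 libraries (normal 1, 2 and 3 and infested 2 and 3 of 96 h AEL, normal 1 and 2 and infested 2 and 3 of 120 h AEL), with adjusted p of up to 0.12, and without atilla-positive cells (-1.17, adjusted p = 0.26). The pll call was lost without normal library 3 of 96 h AEL (0.89, adjusted p = 0.050) or normal library 1 of 120 h AEL (1.02, adjusted p = 0.051) and without atilla-positive cells (0.16, adjusted p = 0.83). The other components did not pass: Tl was at -0.82 ± 0.27 (adjusted p = 0.067), Myd88 at 0.71 ± 0.28 (0.11), cact at -0.71 ± 0.56 (0.43), spz at -0.30 ± 0.45 (0.70) and dl at 0.17 ± 0.90 (0.93). At 96 h AEL the effect in circulation differed from that in the lymph gland for 3 of 6 components, against 27.5% of 8172 genes (16.4% higher and 11.0% lower). It was higher in circulation for Dif (1.98 ± 0.39, adjusted p = 0.0026) and pll (0.92 ± 0.29, adjusted p = 0.028) and lower for Myd88 (-0.79 ± 0.26, adjusted p = 0.033). The pll call was lost without lymph gland normal library 4 or infested library 3 or 4, or circulation normal library 1 or 2 or infested library 2 (0.78 to 0.87, adjusted p of up to 0.077), and with totals alone (0.49, adjusted p = 0.24). The Myd88 call was lost without lymph gland normal library 3 or 4 or infested library 2, or circulation normal library 1 or infested library 1 or 3 (-0.81 to -0.65, adjusted p of up to 0.11), and its value with totals alone was -1.23 (adjusted p = 0.0025). Dif kept its call in all leave-one-out fits. cact was at 1.132 ± 0.58 (adjusted p = 0.16) and Tl at 0.39 ± 0.19 (adjusted p = 0.13). For dl the difference was 0.29 ± 0.59 (adjusted p = 0.75), and 1.40 (adjusted p = 0.017) without normal circulation library 3 of 96 h AEL.

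Of the other pathway genes in circulation, grass was higher in the libraries labelled infested at 96 h AEL (8.53 against 22.6 CPM, 1.63 ± 0.34, adjusted p = 0.0048) and lower at 120 h AEL (7.32 against 1.68 CPM, -1.97 ± 0.36, adjusted p = 0.0011). At 120 h AEL, 3 of 12 cytoplasmic and nuclear genes rose and none fell, a share of rising genes near the 23.5% of all genes. They were krz, a β-arrestin gene (48.1 to 253 CPM, 2.54 ± 0.21, adjusted p = 1.0e-05), Gprk2, a G protein-coupled receptor kinase gene (84.7 to 258 CPM, 1.76 ± 0.45, adjusted p = 0.0091), and Traf6 (8.38 to 11.9 CPM, 0.65 ± 0.25, adjusted p = 0.050, just under the threshold). Spn27A fell from 294 to 90.2 CPM (-1.56 ± 0.28, adjusted p = 0.0011). None of the 2 tested targets passed at either time.

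Normal circulation was compared with the normal lymph gland of the same age. Scaling by library totals in place of TMM moved the median of all genes by 0.38 (96 h AEL) and 0.51 (120 h AEL) on the log2 scale toward circulation, so these differences are relative to that median. At 96 h AEL, circulation and lymph gland also differed in summed plasmatocyte genes (7563 to 11021 against 1347 to 3461 CPM), heat shock genes (2371 to 4713 against 814 to 1823 CPM), fat body genes (26.9 to 963 against 0.139 to 1.39 CPM) and mitochondrial share of UMIs (6.01% to 7.91% against 3.02% to 4.95%), none of which overlapped. Their part in the differences below was not tested. At 96 h AEL, 2 of 7 components passed, against 49.6% of 8497 genes (26.8% higher and 22.9% lower). Myd88 was at 137, 123 and 115 CPM in circulation, above all lymph gland libraries (36.8 to 66.2 CPM), a lack of overlap found for 45.2% of genes, at a 2.07-fold higher level (1.05 ± 0.19, adjusted p = 0.00042). Dif was below all of them (27.6 to 39.2 CPM) and 2.62-fold lower (-1.39 ± 0.28, adjusted p = 0.00097). Tl was at -0.41 ± 0.20 (adjusted p = 0.11), pll at -0.55 ± 0.24 (adjusted p = 0.071) and cact at -0.53 ± 0.37 (adjusted p = 0.24). At 120 h AEL, 3 of 7 passed, against 51.4% of genes (27.6% higher and 23.8% lower), all lower in circulation. The ranges of these 3 overlapped. Those of spz, Tl and Myd88, which did not pass, lay at higher CPM in circulation without overlap, as for either direction of 57.6% of genes.

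At that age Dif was at 23.1, 18.3 and 10.3 CPM in circulation and at 35.3, 21.0, 36.8 and 39.4 CPM in the lymph gland (-1.44 ± 0.27, adjusted p = 0.00053), and pll at 24.6, 28.6 and 26.3 CPM against 60.3, 50.8, 52.8 and 25.5 CPM (-1.35 ± 0.24, adjusted p = 0.00035). Both pairs of groups overlapped through 1 lymph gland library. dl was at 73.1, 113 and 25.4 CPM against 139, 112, 174 and 107 CPM (-1.44 ± 0.53, adjusted p = 0.038). The dl call was lost without lymph gland library 1 (adjusted p = 0.062), 2 (0.051) or 3 (0.092) or circulation library 1 (0.079) or 3 (0.11), and with totals alone (-0.91, adjusted p = 0.15). At 96 h AEL dl was at 0.27 ± 0.50 (adjusted p = 0.68), and at -0.85 (adjusted p = 0.032) once both normal circulation libraries 3 were left out. The ligand gene spz was at 0.21 ± 0.24 (adjusted p = 0.48) and 0.53 ± 0.25 (adjusted p = 0.089), and with totals alone passed at both ages (0.59 and 1.04, adjusted p of 0.041 and 0.0017). At 120 h AEL Tl was at 0.27 ± 0.20 (adjusted p = 0.27) and Myd88 at 0.06 ± 0.20 (adjusted p = 0.81), and both passed with totals alone (0.78 and 0.58, adjusted p of 0.0041 and 0.015). cact was at -0.44 ± 0.38 (adjusted p = 0.34). The target Drs was lower in circulation at both ages, at 119 against 388 CPM (-2.08 ± 0.76, adjusted p = 0.036) and 71.2 against 1527 CPM (-4.96 ± 0.89, adjusted p = 0.00063).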

How the data were processed

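Single hemocytes of 30 libraries were captured by Drop-seq. Per the labels, the authors aligned reads with STAR 2.5.3a to BDGP6, set a minimum of reads per barcode and deposited raw UMI counts per gene and cell barcode, without normalization or pooling of libraries. The cell filters of the study's methods were applied here outside the infested lymph glands: 400 to 5000 genes, UMIs up to 2 SD above the library mean, and mitochondrial UMIs of no more than 10% in lymph gland cells and 20% in circulating cells. The deposited barcodes of infested lymph glands already matched in number the cells left by the study's filters, and all were kept. For some of these libraries the study set a lower minimum of genes, so normal and infested glands were not filtered alike. An alternative applied the filters above to infested lymph glands too. No doublet caller was run, and doublets were limited only by the UMI ceiling and by an alternative without the 5% of cells with most UMIs.

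UMIs were summed per library (1125944 to 33310323 UMIs), or per Tep4 and Hml class with at least 10 cells, and tested with edgeR 4.0.16 (R 4.3.3), robust quasi-likelihood fits, TMM scaling, filterByExpr and Benjamini-Hochberg adjustment over all genes tested, at an FDR of 0.05. The contrast of the 2 status classes kept the library as a block, and other fits had no block. CPM use library totals without TMM factors, so ratios of printed CPM can differ from fitted fold changes. Each p-value sets a fitted difference against the spread between libraries within groups. For the contrast of the status classes, this is the spread of the class difference over libraries. The fits were tested on simulated data with 200 changed genes. The simulated libraries shared a common profile apart from these genes, so they say nothing of the fits under shifts in cell makeup.

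The components are given in every comparison in which they were tested, and SPE, tested in none, by its counts. From each list of other pathway genes, genes are named from the 3 past the threshold with the largest change and at least 5 CPM, and likeness is Pearson's r of log2(CPM + 1). Tollo, Mtk and others outside the components follow this rule, and lz, PPO2, Antp, kn and atilla gates are descriptions. Of the lists, 17 of 18, 13 of 13, 12 of 12 and 9 of 10 genes had values. Components, lists and comparisons were chosen with earlier results of these data known. Positions were matched by symbol to an Ensembl annotation of BDGP6. Alternatives were DESeq2 1.42.0, RLE factors, totals alone, no filter, all barcodes, joint fits, replicate block, thinning to 1000 UMIs, left-out libraries and, chosen after seeing the data, left-out circulation libraries 3, shared barcodes and cells with at least 3 PPO1 and PPO2 UMIs.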

Additional observations from a re-analysis of the deposited data

Results flagged for a closer look

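Library 5 of lymph glands of 72 h AEL lay apart from the other 4 for spz, at 513 CPM with the next library at 374.8 CPM, and for Myd88, at 63.3 CPM with the next at 37.5 CPM. It was the smallest library of its group, with 2228375 UMIs and 136 cells. Of 31 groups of values examined in this way, chance alone would pick about 1 in 20. All 31 were lymph gland groups, because the circulation groups, of 3 libraries each, were too small to be examined.

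The effect of infestation in circulation differed between 120 and 96 h AEL for pll, by 1.06 on the log2 scale, and for Dif, by -1.995. At 96 h AEL it differed between circulation and lymph gland for Myd88, by -0.79, for pll, by 0.92, and for Dif, by 1.98. Each passed the test of the difference itself, but of the 5 only Dif between circulation and lymph gland kept its call in every leave-one-out fit. Over cells without an atilla UMI, the change with time was 0.16 for pll (adjusted p = 0.83) and -1.17 for Dif (adjusted p = 0.26). All of them use the 3 libraries labelled as circulation of infested larvae at 96 h AEL, whose Tep4 level was 674 to 957 CPM. The part of their cell makeup in these differences was not tested.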

How the results depend on the processing

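Of 889 recomputations of the 37 component values called, 813 kept the call, 75 lost it and 1 turned, and of 1201 recomputations of the 50 values not called, 1155 kept their side, 45 passed and 1 passed with the other sign. The values that turned were Myd88 in circulation at 120 h AEL, -0.45 over cells without an atilla UMI, and dl in circulation against lymph gland at 96 h AEL, -0.85 without both normal circulation libraries 3. The causes were not tested.

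Replicate numbers did not pair the libraries: same-numbered libraries had correlations of -0.517 to 0.363 over 29 pairs, of which 6 were above 0.1. The 87 component values, 37 of them called in the main fit, were recomputed with the replicate number as a block, or with no block between the status classes. Of the 37 calls 6 were lost, and no value gained a call. The remaining 81 values, called or not, stayed on their side of the threshold. The block ended the calls of spz from 96 to 120 h AEL (-0.34, adjusted p = 0.098), Dif in the change of the circulation effect (-1.98, 0.090), dl in circulation against lymph gland at 120 h AEL (-1.43, 0.10), and pll (0.94, 0.052) and Myd88 (-0.72, 0.056) for circulation minus lymph gland, and its omission that of dl between the status classes (0.45, 0.37). Called genes numbered 770 for infested lymph glands and 630 for the change of the circulation effect with time under the block, with 1 component there and 1 for circulation minus lymph gland, and 710 between the status classes without the block.

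From 72 to 96 h AEL, 2 components passed with DESeq2, with RLE factors and without the 5% of cells with most UMIs. For infested lymph glands the joint fit called 678 genes. For the change of the circulation effect, DESeq2 called 1452 genes, no filter 617, the joint fit 1689, cells without atilla 67 and the omission of both normal libraries 3 619, and the components called were 1 with no filter, 0 without atilla, 1 without PPO1 and PPO2 cells and 1 without those libraries. For circulation at 120 h AEL, cells without atilla gave 1043 genes and 1 component. The omission of both libraries 3 gave 4 components in circulation at 96 h AEL, 4 in circulation against lymph gland at 96 h AEL (also with no filter and in the joint fit) and 5 for circulation minus lymph gland. Totals alone gave 5 components in circulation against lymph gland at 120 h AEL and 922 genes in infested Tep4+ Hml- cells. Thinning gave 2362 genes between the status classes, and no filter 4 components in infested Tep4- Hml+ cells.

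With 1 library left out, called components numbered 1 to 2 from 72 to 96 h AEL. For infested lymph glands they were 3 to 4, with 666 to 1465 genes. In circulation they were 2 to 3 with 1556 to 3154 genes at 96 h AEL, 1 to 3 with 2377 to 3744 genes at 120 h AEL, and 0 to 3 with 378 to 1229 genes for the change between them. They were 1 to 5 for circulation minus lymph gland, 1 to 2 with 306 to 561 genes in infested Tep4+ Hml- cells and 2 to 4 with 539 to 881 genes in infested Tep4- Hml+ cells.

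Scaling by totals alone moved the share of called genes that were higher from 49.1% to 69.7% for 72 to 96 h AEL, from 51.9% to 39.5% for 96 to 120 h AEL, from 45.3% to 73.6% for infested lymph glands, from 52.1% to 30.9% and 50.8% to 39.7% for circulation at 96 and 120 h AEL, from 53.9% to 80.6% and 53.8% to 83.7% for circulation against lymph gland, from 59.8% to 23.3% for circulation minus lymph gland, from 56.4% to 31.9% between the status classes, and from 43.4% to 81.1% and 40.4% to 71.3% for infested Tep4+ Hml- and Tep4- Hml+ cells. SPE was too sparse for any test at this depth.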
